A study of Cavia porcellus with 34 samples.

Results

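The subject of this report is a group of 9 genes of mitochondrial carbon oxidation: PDHA1 and DLD of the pyruvate dehydrogenase (PDH) complex, and CS, IDH3A, IDH3B, OGDH, SUCLA2, FH and MDH2 of the tricarboxylic acid (TCA) cycle. They were chosen by name, and their rows were found by gene symbol in the table of each generation. Rows for 7 of the 9 were found among the 12114 genes of the F1 table and among the 12207 genes of the F2 table, and rows for 6 among the 12068 genes of the F3 table. PDHA1 and FH in every generation, and SUCLA2 in F3, are not analysed here. All members with a row passed the filter on low values, a mean of at least 10.

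The samples were punches of the hypothalamic paraventricular nucleus (PVN) of juvenile female guinea pigs, taken on postnatal day 40 and profiled by RNA sequencing. The animals descended from pregnant F0 females that were given either saline vehicle (Veh) or the synthetic glucocorticoid betamethasone (sGC). F1 animals were daughters of these females and were exposed in utero. F2 and F3 animals descended from them through the paternal line (paternal transmission, PT), the F2 animals as daughters of F1 males. Per the study's methods the breeding animals were mated with naive partners, so the mothers of F2 and F3 animals were not treated. The comparison asks whether transcript levels differed between the sGC and Veh lines within a generation, and used 5 Veh with 5 sGC animals for F1, the same numbers for F2, and 6 Veh with 6 sGC animals for F3. No genotype or strain difference between groups is given. Per the study's methods, the punches may hold hypothalamic tissue next to the PVN. In the study's methods sample size counts litters rather than offspring, but the labels tie no animal to a litter, and p-values measure the spread between these samples.

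The PDH complex converts pyruvate, the end product of glycolysis, to acetyl-CoA inside the mitochondrion. Citrate synthase joins acetyl-CoA to oxaloacetate, and the TCA cycle then oxidizes the product stepwise, passing electrons to the respiratory chain. Neurons rely on this route for most of their ATP, and alpha-ketoglutarate from the cycle is also the precursor of glutamate and GABA.

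No member passed the test in any generation. In F1 the differences of the members had no common direction. The cycle's entry enzyme CS and the dehydrogenase OGDH lay higher in sGC animals, and SUCLA2, MDH2, IDH3B and DLD lay lower, each by no more than 0.15 on the log2 scale. In F2 and F3 all members lay within 0.10 of their Veh mean on the log2 scale. The plot of levels by animal shows each of these values.

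**Figure D1:**
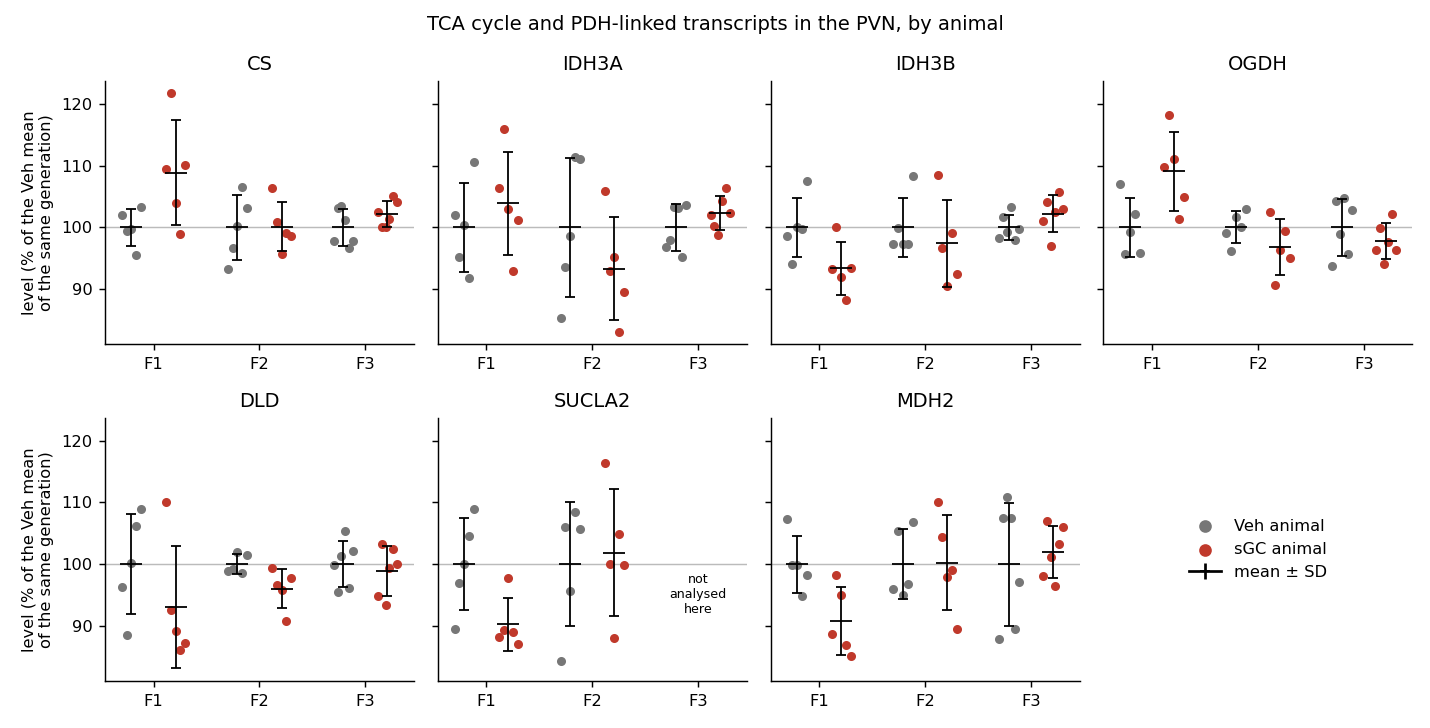
Level of each measured member in each animal, as percent of the Veh mean of the same generation (vertical axis), for F1, F2 and F3 (horizontal axis). Grey points are Veh animals, red points are sGC animals, and black bars give mean ± SD. The groups overlapped for every member in every generation. In F1 all 5 sGC animals lay above the Veh mean for OGDH, and all 5 lay below it for SUCLA2 and MDH2.

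Levels are given as scaled counts, which are the deposited normalized counts divided by a size factor for each animal (median of ratios within the table). Totals of the deposited values per animal ranged from 15573233 to 21935501 in F1, from 15645962 to 19435104 in F2 and from 18692048 to 18977539 in F3. Fold changes were tested with limma on log2(scaled count + 1) over all genes, and a gene was called at a Benjamini-Hochberg adjusted p under 0.05. In F1, 17.3% of the 11870 genes tested were called (1006 or 8.48% higher and 1052 or 8.86% lower in sGC), and 0 of the 7 members were among them. At an unadjusted p under 0.05 stood 5 of the 7 members, against 33% of all genes. The Veh and sGC groups did not overlap for 14.2% of all genes and for 0 of the 7 members.

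Markers of the tissue varied between the F1 animals. Summed over AVP, OXT, CRH, TRH, SST, SIM1 and OTP, the markers of neuroendocrine and PVN neurons reached 111109 to 213380 scaled counts in the Veh animals. The sum was 21640 in the sGC animal SGM4, 30842 in SGM8 and 51821 in SGM20, and 143986 and 182007 in the other sGC animals. Each of these 7 markers had a lower mean in sGC, 1 of them (TRH) passed the test, and none was at 0 in any animal. SGM4 and SGM8 also had the highest sums of oligodendrocyte, endothelial, and mural and leptomeningeal markers, as the plot of marker sums shows. In F1 the mural and leptomeningeal sum rests on only 2 of 7 listed markers, and the oligodendrocyte sum on 6 of 7. For the mural and leptomeningeal sum, SGM16 (3921) was close to SGM8 (4445). Of all F1 animals these 2 were the most extreme in each of these sums. The F1 fold changes of the members, the calls among their partner genes and the F1 contrasts are therefore given with and without them. SGM20, whose PVN sum also lay below every Veh animal, stays in those fits. Microglia marker sums were also highest in SGM4 (6474) and SGM8 (4453), against 3637 to 3888 in Veh. Of 8 neuron markers 1 was called lower (8.86% of all genes), and of 5 microglia markers 1 higher (8.48%). Neuron marker sums differed between these animals, at 68597 in SGM4 and 89926 in SGM8, against 71419 to 82994 in Veh. Leaving them out is thus no test of cell content. The part of cell content in the F1 values was not tested. In bulk tissue fewer cells of a type cannot be told apart from less RNA per cell.

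**Figure D2:**
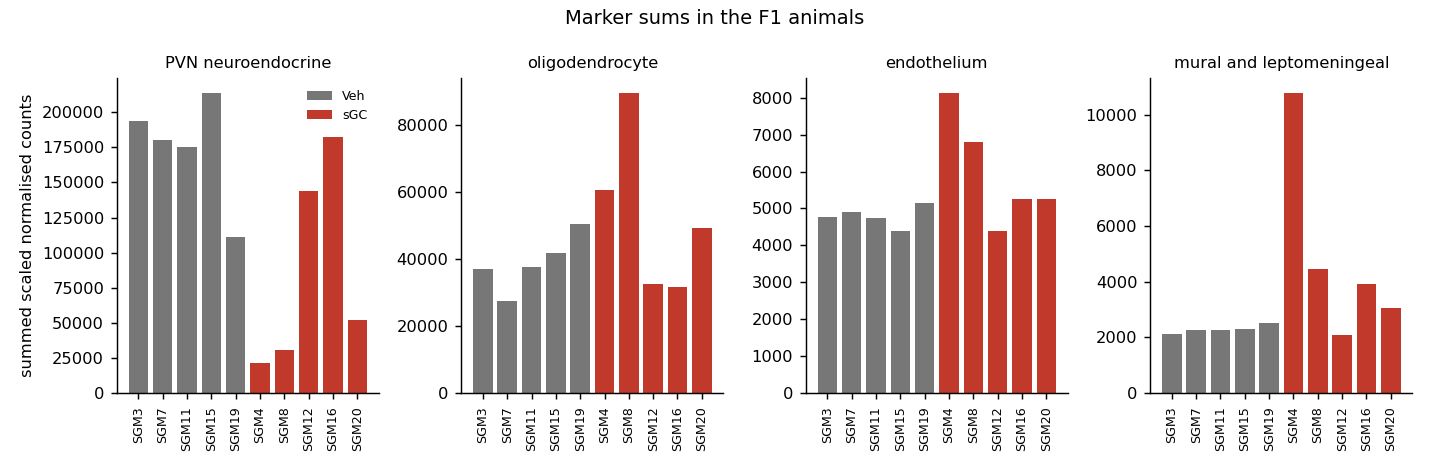
Summed scaled counts (vertical axes, starting at 0) of 4 marker lists in each F1 animal (horizontal axes), with Veh animals in grey and sGC animals in red. SGM4 and SGM8 had the lowest sums of PVN neuroendocrine markers, 21640 and 30842, and the highest sums of the other 3 lists. The mural and leptomeningeal sum holds 2 of 7 listed markers.

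DLD encodes dihydrolipoamide dehydrogenase, the subunit that the PDH complex shares with the alpha-ketoglutarate dehydrogenase complex. In F1 its scaled counts were 1749, 1609, 1818, 1928 and 1977 in the Veh animals and 2000, 1681, 1619, 1564 and 1584 in the sGC animals. The sGC animal SGM4 had the highest value of all 10 animals, and 2 sGC animals lay below the lowest Veh value. The log2 fold change was −0.11 (SE 0.08, adjusted p = 0.361), and it was −0.19 (adjusted p = 0.0790) without SGM4 and SGM8.

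CS encodes citrate synthase, which commits acetyl-CoA to the cycle. In F1 the Veh animals had scaled counts of 4413, 4300, 4312, 4134 and 4468, and the sGC animals 4738, 5267, 4496, 4278 and 4765. Of the sGC animals, 4 of 5 lay above every Veh animal, SGM12 only narrowly, and SGM16 lay within the Veh range. The mean was 4326 ± 128 (SD, n = 5) in Veh and 4709 ± 369 (n = 5) in sGC, and the log2 fold change was 0.12 (SE 0.05, adjusted p = 0.135). Without SGM4 and SGM8 the log2 fold change was 0.06 (adjusted p = 0.408).

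IDH3A and IDH3B encode the catalytic alpha subunit and the beta subunit of the NAD-dependent isocitrate dehydrogenase. IDH3A had scaled counts of 2778 to 3346 in the F1 Veh animals and 2813 to 3507 in the sGC animals, with a log2 fold change of 0.05 (SE 0.06, adjusted p = 0.593). Its sign turned without SGM4 and SGM8, to −0.01. IDH3B had scaled counts of 2136, 2036, 2168, 2160 and 2327 in Veh and 2018, 2167, 1992, 1910 and 2022 in sGC. For IDH3B, 4 of the 5 sGC animals lay below the lowest Veh animal. Its log2 fold change was −0.10 (SE 0.04, adjusted p = 0.150) with all animals and −0.13 (adjusted p = 0.0898) without SGM4 and SGM8.

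OGDH encodes the catalytic subunit of the alpha-ketoglutarate dehydrogenase complex, a step at which the flux of the cycle is controlled. F1 Veh animals had scaled counts of 7171, 6415, 6659, 6852 and 6428, and sGC animals 7356, 7928, 7442, 6794 and 7039. All 5 sGC animals lay above the Veh mean of 6705 ± 317 (SD, n = 5), and 3 of them above every Veh animal. The log2 fold change of 0.12 had a 95% interval of 0.02 to 0.23 and an adjusted p of 0.1001. Without SGM4 and SGM8 it was 0.08 (adjusted p = 0.311), and with quantile normalization in place of size factors it was 0.13 and called (adjusted p = 0.0354, with 17.6% of all genes called).

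SUCLA2 encodes the ADP-forming beta subunit of succinyl-CoA synthetase, the step of the cycle that yields a nucleotide triphosphate. Its scaled counts in F1 were 2166, 2343, 2421, 2530 and 2634 in Veh and 2132, 2162, 2365, 2153 and 2105 in sGC. In sGC, 4 of the 5 animals lay below the lowest Veh animal, and SGM12 lay among the Veh animals. The mean was 2419 ± 179 (SD, n = 5) in Veh and 2184 ± 104 (n = 5) in sGC, and the log2 fold change was −0.15 (SE 0.05, adjusted p = 0.0901). The gene was called without the Veh animal SGM3 (−0.19, adjusted p = 0.0376), and it stood at −0.13 (adjusted p = 0.211) without SGM4 and SGM8.

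MDH2 encodes mitochondrial malate dehydrogenase, which closes the cycle by regenerating oxaloacetate and also serves the malate-aspartate shuttle. In F1 the Veh animals had scaled counts of 6445, 5995, 5991, 5689 and 5893, and the sGC animals 5325, 5893, 5697, 5217 and 5107. All 5 sGC animals lay below the Veh mean of 6003 ± 277 (SD, n = 5), and 3 lay below every Veh animal. The log2 fold change of −0.14 (SE 0.05) had the lowest adjusted p of the members, 0.0690. MDH2 was called without the sGC animal SGM8 (−0.17, adjusted p = 0.0316) and not without both SGM4 and SGM8 (−0.17, adjusted p = 0.0615).

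Over the 7 members, the F1 median log2 fold change was −0.10, against 0.00 over all genes tested, with 4 members lower and 3 higher. The fit without SGM4 and SGM8 called 13% of 11851 genes and again 0 members. The fold changes with their intervals are plotted for the 3 generations.

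**Figure D3:**
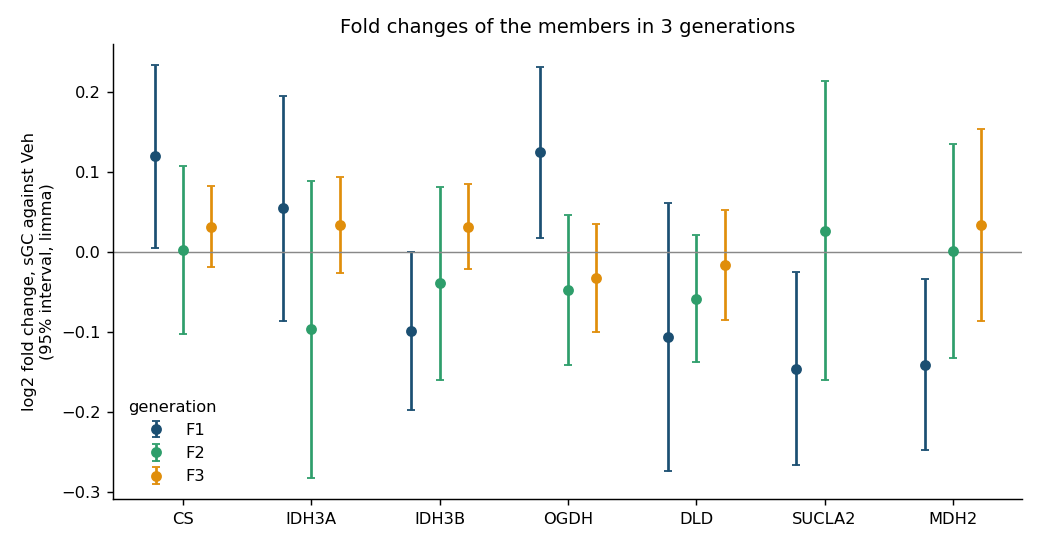
Log2 fold change of sGC against Veh (vertical axis) for each measured member (horizontal axis) in F1 (blue), F2 (green) and F3 (orange), with the 95% interval of the limma fit. No member was called in any generation after adjustment, and the F1 intervals of CS and OGDH lay above 0 and those of IDH3B, SUCLA2 and MDH2 below 0 before it.

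The spread in direction was examined further by taking ratios of 2 members within the same animal. Dividing each animal by a size factor cannot move such a ratio. Quantile normalization can move it, and ratios were taken on the deposited values only. This comparison of ratios was added after the F1 values were seen and is a description without a test. A ratio of counts also holds the lengths of both transcripts, so only its difference between animals is read. In F1 the Veh and sGC groups did not overlap for 5 of the 21 pairs of members, against 11.2% of all pairs of genes tested. In F2 this held for 0 of 21 pairs (3.34% of all pairs) and in F3 for 0 of 15 (1.18%). The same gene enters several pairs, and the pairs are not independent of each other.

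OGDH against MDH2 was the pair of the catalytic subunit that was higher and the cycle's last enzyme, which was lower. The ratio was 1.11, 1.07, 1.11, 1.20 and 1.09 in the Veh animals and 1.38, 1.35, 1.31, 1.30 and 1.38 in the sGC animals. Every sGC animal lay above every Veh animal, and the mean log2 ratio differed by 0.27 (SD 0.07 in Veh and 0.04 in sGC, n = 5 each). In F2 the ranges were 0.847 to 0.993 in Veh and 0.806 to 0.984 in sGC, and in F3 they were 0.809 to 0.968 and 0.823 to 0.916. In both later generations the sGC range thus lay within or overlapped the Veh range.

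IDH3A against IDH3B was another pair whose F1 groups did not overlap. Its ratio was 1.44, 1.41, 1.399, 1.29 and 1.44 in Veh and 1.59, 1.62, 1.56, 1.47 and 1.51 in sGC. The lowest sGC value and the highest Veh value were close, 1.47 and 1.44, and the mean log2 ratio differed by 0.15. The ratio of CS to IDH3B was 1.91 to 2.11 in Veh and 2.24 to 2.43 in sGC, and that of CS to MDH2 was 0.685 to 0.758 in Veh and 0.789 to 0.933 in sGC. IDH3B against OGDH was lower in sGC, 0.268 to 0.287 against 0.298 to 0.362 in Veh. CS and OGDH, both with higher means in sGC, had similar ratios in the groups, with a mean log2 difference of −0.0048 and overlapping groups. The groups also overlapped for SUCLA2 and MDH2, both with lower means in sGC, with a mean log2 difference of −0.0049.

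Without SGM4 and SGM8, 8 of the 21 pairs did not overlap in F1, against 20.1% of all pairs. They included the 5 pairs named above and added CS, IDH3A and OGDH each against DLD, all with higher ratios in sGC. With 5 against 3 animals groups separate more easily, as the share over all pairs shows.

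**Figure D4:**
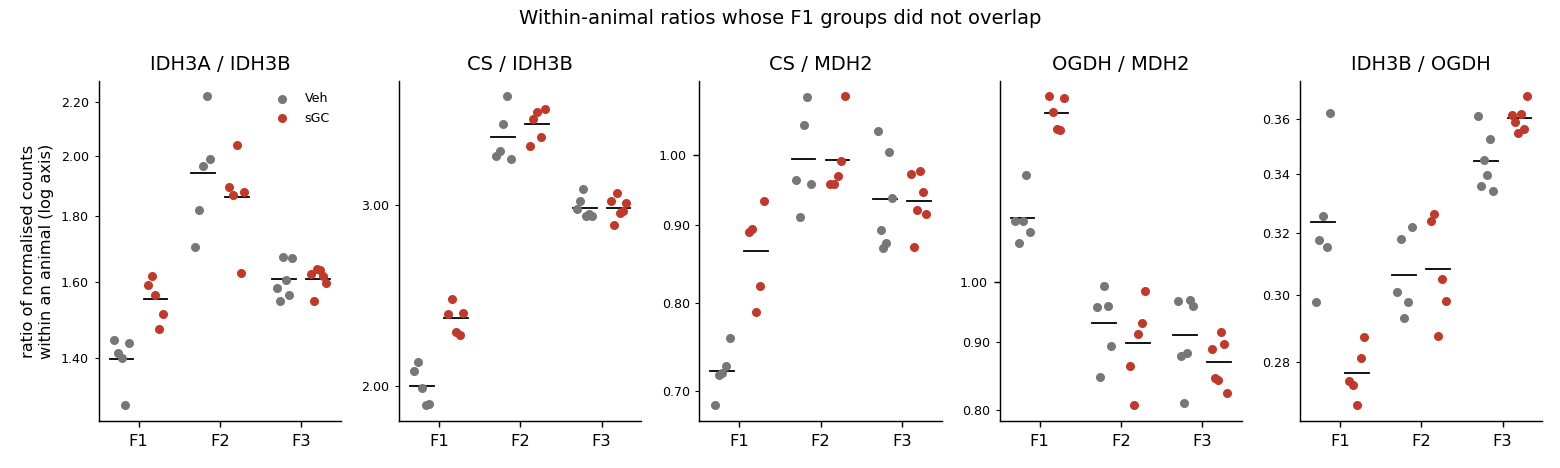
Ratio of the normalized counts of 2 members within each animal (vertical axes, log scale) in F1, F2 and F3 (horizontal axes), for the 5 pairs whose F1 groups did not overlap. Grey points are Veh animals, red points are sGC animals and lines are means. The F1 groups are apart in each panel, and the F2 and F3 groups overlap. The pairs were chosen for their F1 values, and levels are not comparable between generations.

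In F2, 0 of the 11959 genes tested were called by limma (0%), and 1534 (12.8%) had an unadjusted p under 0.05. None of the 7 members did. Groups did not overlap for 3.21% of all genes and for 0 members. The member with the smallest p was DLD, with scaled counts of 1741, 1745, 1795, 1734 and 1785 in Veh and 1748, 1701, 1685, 1598 and 1720 in sGC. All 5 sGC animals lay below the Veh mean of 1760 ± 28 (SD, n = 5), and the log2 fold change was −0.06 (SE 0.04, adjusted p = 0.557). IDH3A had the largest fold change, −0.10 (SE 0.08, adjusted p = 0.717), with wide and overlapping ranges of 2853 to 3727 in Veh and 2776 to 3538 in sGC.

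CS and MDH2 were level in F2, at log2 fold changes of 0.00, with 95% intervals of −0.10 to 0.11 and −0.13 to 0.14. IDH3B, OGDH and SUCLA2 stood at −0.04, −0.05 and 0.03, with adjusted p of 0.846, 0.723 and 0.943. The member median was −0.04, and that of all genes 0.00. In F2 the summed oligodendrocyte markers did not overlap between groups, at 126056 to 238405 in Veh and 72887 to 105311 in sGC. Of that list all 7 markers had lower means in sGC, 0 were called and none was at 0. The 7 PVN neuroendocrine markers, lower in sGC in F1, all had higher means in sGC in F2, and 0 were called. Their sums overlapped, at 56978 to 108313 in Veh and 82784 to 199859 in sGC. All measured markers of neurons, microglia and endothelium had lower means in sGC, and all of astrocytes higher means. The part of these differences in the F2 values of the members was not tested.

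In F3, 5 of the 11865 genes tested were called (0.0421%) and 0 of the 6 members. None of the 6 had an unadjusted p under 0.05 (13.2% of all genes), and groups did not overlap for 1.26% of all genes and for 0 members. CS had scaled counts of 6093 to 6524 in the Veh animals (median 6274) and 6310 to 6621 in the sGC animals (median 6423). All 6 sGC animals lay above the Veh mean of 6304 ± 187 (SD, n = 6), and the difference was within the spread, at a log2 fold change of 0.03 (SE 0.02, adjusted p = 0.610).

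F3 fold changes of IDH3A, IDH3B and MDH2 were 0.03 each, that of OGDH was −0.03 and that of DLD −0.02, with adjusted p from 0.632 to 0.881. The 95% intervals were narrow for IDH3B (−0.02 to 0.08) and widest for MDH2 (−0.09 to 0.15), whose Veh animals ranged from 5950 to 7508. The sGC animals SGM21 and SGM22 were sequenced in a second batch together with repeat libraries of the Veh animals SGM5 and SGM9. Those repeats served the authors' batch correction and are not analysed here, so the second batch has no comparison of its own. Within the first batch alone the fold changes were 0.01 for CS, 0.02 for IDH3A, 0.02 for IDH3B, −0.04 for OGDH, 0.01 for MDH2 and −0.03 for DLD, and none was called.

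Differences between generations were tested as contrasts of the log2 fold changes taken within each table. For F1 against F2, F1 against F3 and F2 against F3, limma called 4.45%, 22% and 1.73% of the genes tested in both, and 0 members in each. The contrast nearest to a call was OGDH between F1 and F3, 0.16 (SE 0.06, adjusted p = 0.0503). IDH3B followed between F1 and F3 with −0.13 (SE 0.05, adjusted p = 0.0531), then OGDH between F1 and F2 with 0.17 (SE 0.06, adjusted p = 0.110) and MDH2 between F1 and F3 with −0.17 (SE 0.08, adjusted p = 0.122). A two-sided exact permutation of treatment within each generation gave unadjusted p of 0.0191 for OGDH and 0.0137 for IDH3B between F1 and F3, and 0.0111 for OGDH between F1 and F2. That permutation assumes no treatment effect in either generation. A small p can thus come from an effect in a single generation and is no test of the difference alone. The 19 member contrasts make up this family of tests. With quantile normalization OGDH (adjusted p = 0.00738) and IDH3B (adjusted p = 0.0410) were called between F1 and F3. Without SGM4 and SGM8, IDH3B was called between F1 and F3 (−0.16, adjusted p = 0.0174, with 22% of all genes called), and OGDH stood at 0.11 (adjusted p = 0.162). No member was then called between F1 and F2, where 1.18% of all genes were.

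Across animals, after each level was centred on its group mean, members tended to vary together. The median correlation between pairs of members was 0.41 in F1 (21 pairs, 10 animals, range −0.22 to 0.87), 0.44 in F2 (21 pairs, 10 animals) and 0.54 in F3 (15 pairs, 12 animals). In F1 the lowest values were those of SUCLA2 with OGDH, MDH2 and CS. Over all 32 animals, the genes whose centred profile was most like the mean of the members included, of 11419 compared, ATP5B (r = 0.89), GOT1 (r = 0.89), NDUFS1 (r = 0.89) and ALDOA (r = 0.87). ATP5B encodes a catalytic subunit of ATP synthase, GOT1 the cytosolic aspartate aminotransferase, NDUFS1 a core subunit of complex I and ALDOA an aldolase of glycolysis. These correlations are descriptions, and the animals share their tissue content and the scaling. No median over all pairs of genes was taken, so the values are not shown to be particular to the members.

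Around the members, the other genes of the route were described from 5 lists. In F1, 9 of their 56 genes tested passed (16.1%), close to the 17.3% of all genes, and 6 of 56 did without SGM4 and SGM8 (10.7%, against 13% of all genes). MPC1 and MPC2 together form the mitochondrial pyruvate carrier, and both fell in F1. MPC1 had scaled counts of 811, 782, 796, 793 and 802 in Veh and 616, 676, 583, 672 and 652 in sGC. MPC2 had 759, 779, 808, 900 and 821 in Veh and 612, 666, 652, 622 and 686 in sGC. For both genes every sGC animal lay below every Veh animal. The log2 fold change was −0.32 (SE 0.05, adjusted p = 0.00289) for MPC1 and −0.33 (SE 0.06, adjusted p = 0.00448) for MPC2. Both calls held without SGM4 and SGM8, with adjusted p of 0.00831 for MPC1 and 0.0156 for MPC2, and neither held on the unscaled deposited values (−0.26 and −0.26, adjusted p of 0.380 and 0.323). Of the 12 genes tested in the list of pyruvate entry and shuttles, 2 were called (16.7%, against 17.3% of all genes). Both were lower, and 8.86% of all genes were called lower. The list median was −0.07.

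Of the 7 kinases, phosphatases and regulators of PDH, 3 were called in F1 (42.9%, against 17.3% of all genes), 2 higher and 1 lower. Without SGM4 and SGM8, 1 of the 7 was called (14.3%, against 13% of all genes). PDK3, a kinase that inactivates PDH by phosphorylation, rose from 2113 to 2241 scaled counts in the Veh animals to 2333 to 2642 in the sGC animals. The ranges did not overlap, and the log2 fold change was 0.21 (SE 0.04, adjusted p = 0.00887). PDPR, the regulatory subunit of a PDH phosphatase, rose by 0.49 (SE 0.12, adjusted p = 0.0213), and PDP2, a PDH phosphatase that reactivates the complex, fell by 0.18 (SE 0.04, adjusted p = 0.0222). Named after their values were seen, the kinase PDK4 and the phosphatase PDP1 were not called, at −0.61 (SE 0.20, adjusted p = 0.0595) and −0.47 (SE 0.15, adjusted p = 0.0584). The groups of PDP1 did not overlap, with 1574 to 3119 scaled counts in Veh and 1342 to 1474 in sGC. Without SGM4 and SGM8, PDK3 kept its call (adjusted p = 0.0135), whereas PDPR (0.44, adjusted p = 0.0672) and PDP2 (−0.16, adjusted p = 0.0773) did not.

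Among 12 further subunits of the PDH complex and the cycle, 1 was called in F1, lower in sGC (8.33%, against 17.3% of all genes called and 8.86% called lower). It was PDHB, the beta subunit of the pyruvate-decarboxylating component, the partner of PDHA1. PDHB had scaled counts of 1971, 2009, 2016, 1862 and 2177 in Veh and 1784, 1879, 1859, 1727 and 1784 in sGC. The groups overlapped slightly, and the log2 fold change was −0.15 (SE 0.04, adjusted p = 0.0411). That call was lost without SGM4 and SGM8 (−0.17, adjusted p = 0.0675), without the mean-variance trend (adjusted p = 0.0605), with the directions removed by the authors as covariates (adjusted p = 0.0711) and on leaving out any of 7 single animals. The list median was −0.06.

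In glycolysis 1 of 14 genes was called in F1, lower in sGC (7.14%, against 17.3% of all genes called and 8.86% called lower). PGAM1, a phosphoglycerate mutase, fell by 0.14 on the log2 scale (SE 0.03, adjusted p = 0.0176) with no overlap between groups. Of 11 regulators of mitochondrial biogenesis, 2 were called in F1 (18.2%, against 17.3% of all genes), 1 higher and 1 lower. PPARGC1A, a transcriptional coactivator of mitochondrial genes, rose from 506 to 567 scaled counts in Veh to 578 to 855 in sGC. Its log2 fold change was 0.40 (SE 0.09, adjusted p = 0.0135). ESRRA, a nuclear receptor that PPARGC1A coactivates, moved the other way, by −0.19 (SE 0.05, adjusted p = 0.0309). The ESRRA call was lost in 7 of 10 fits that left out 1 animal and with the removed directions as covariates (adjusted p = 0.0536). The calls of PGAM1 (−0.14, adjusted p = 0.0389), PPARGC1A (0.29, adjusted p = 0.0300) and ESRRA (−0.22, adjusted p = 0.0404) held without SGM4 and SGM8. Beside these lists, 33 of 65 respiratory chain genes were called lower and 0 higher in F1 (8.86% of all genes were called lower), with a median of −0.20. Without SGM4 and SGM8, 35 of the 65 were called lower (6.12% of all genes) at a median of −0.24, and on the unscaled deposited values 0 were called at a median of −0.14, against 0.07 over all genes. The part of the marker differences between the F1 animals in these counts was not tested. None of the calls named here for the 5 lists held on the unscaled deposited values, where 0.657% of all genes were called. In F2, 0 of 66 respiratory chain genes were called, at a median of −0.07. Of these, 17 had an unadjusted limma p under 0.05, against 12.8% of all genes. In F3, 0 of 65 were called, at a median of 0.03. There 5 had an unadjusted limma p under 0.05, against 13.2% of all genes.

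**Figure D5:**
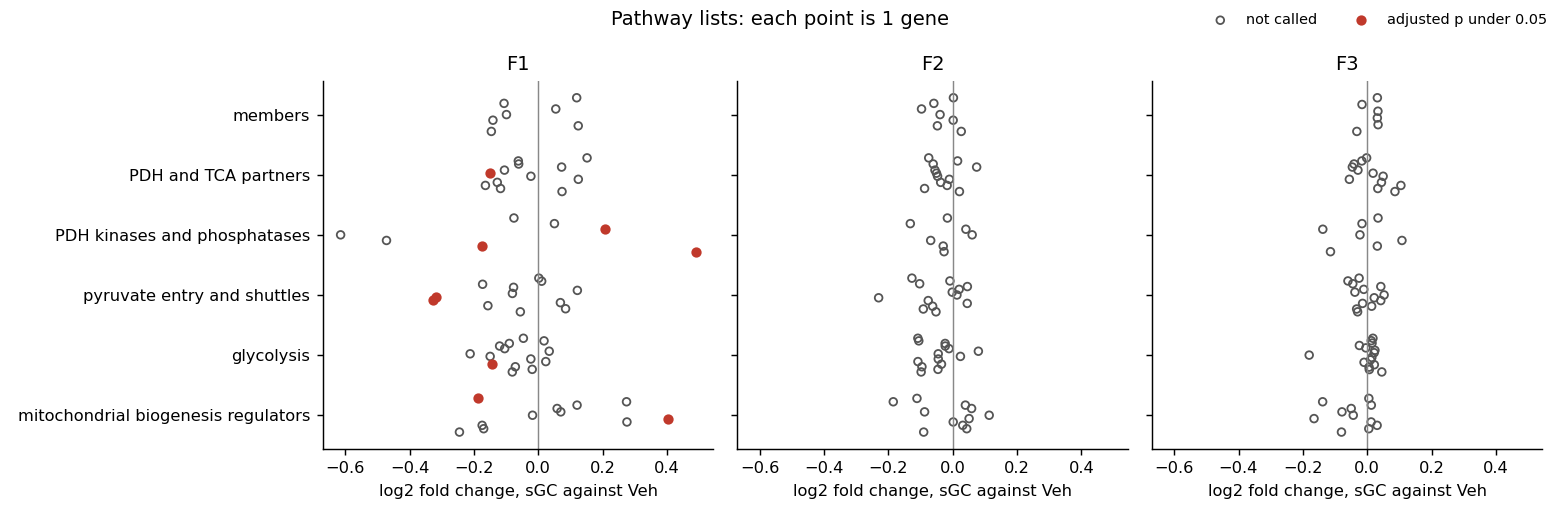
Log2 fold change of sGC against Veh (horizontal axes) for every gene tested of the members and of 5 pathway lists (vertical axis), in F1, F2 and F3. Each point is 1 gene, and filled red points have an adjusted p under 0.05. All the red points are in F1, at MPC1, MPC2, PDK3, PDPR, PDP2, PDHB, PGAM1, PPARGC1A and ESRRA. None of the 7 members is among them.

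No gene of the 5 lists was called in F2 or F3. In F2 the smallest p in each list belonged to SUCLG1, a subunit of succinyl-CoA synthetase (−0.09, adjusted p = 0.510), PDK2, a PDH kinase (−0.13, adjusted p = 0.417), MPC2 (−0.23, adjusted p = 0.415), the glycolytic enzyme TPI1 (−0.10, adjusted p = 0.505) and ESRRA (−0.11, adjusted p = 0.306). MPC1 was level in F2 (0.01, adjusted p = 0.970). In F3 the corresponding genes were SDHC, a subunit of succinate dehydrogenase (0.10, adjusted p = 0.171), PDK3 (−0.14, adjusted p = 0.181), PC, the pyruvate carboxylase (0.04, adjusted p = 0.523), LDHA, a lactate dehydrogenase subunit (−0.18, adjusted p = 0.107), and PPARGC1A (−0.17, adjusted p = 0.299). MPC1 and MPC2 stood at 0.05 and 0.02 in F3, with adjusted p of 0.656 and 0.841. For LDHA, the sGC animals ranged from 2279 to 2582 scaled counts and the Veh animals from 2586 to 2985, without overlap. PDK3 and PPARGC1A, higher in sGC in F1, lay lower in all 6 F3 sGC animals than the F3 Veh mean. For the genes of these lists no contrast between generations was run.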

How the data were processed

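PVN punches of 32 animals in 3 generations were analysed. The authors aligned single-end reads to the guinea pig genome (TopHat2 is named in the submitters' processing notes), counted reads per gene, removed outlier values, corrected the F3 batches, normalized by RUVSeq residuals and tested with edgeR. The deposited values are these residual-normalized counts rounded to whole numbers and were handled as a score, not as raw counts, so no count model was used. Unwanted variation was removed before deposit, so p-values may be too small (1, 1 and 2 directions in F1, F2 and F3, read from the values). Each table also holds 6 columns of the authors' own comparison, which were not used.

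Each animal was scaled by median-of-ratios size factors within its table, because totals differed in F1 and F2. Genes with a mean of at least 10 were tested on log2(scaled count + 1) by limma's moderated test with a mean-variance trend (R 4.3.3, limma 3.58.1). Pseudocounts slightly understate changes of low genes. P-values were Benjamini-Hochberg adjusted over all genes of a table, with a threshold of 0.05. Tables were normalized separately, so no level was compared across generations. The script was tested on simulated data.

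The members and lists were chosen with earlier results of these data known. Every member is named. From each of the 5 lists, called genes (at most 4, by p) are named for each generation, or the gene with the smallest p where none was called. The 5 genes most like the members were taken by Pearson r over centred levels, and 1 of them is not reported here. Alternatives were the deposited scale, scaling to totals, quantile normalization, a minimum of 50 or none, a pseudocount of 5, no trend, the removed directions as covariates, the F3 batch, and each animal left out. Ratios within animals, F1 without SGM4 and SGM8 and a block on the number in the column names were added after seeing the data. Files of the genome build used were not at hand, so no sequence, position or transcript length is given, and levels of different genes are not compared.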

Additional observations from a re-analysis of the deposited data

Results flagged for a closer look

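In 2 of 40 groups of member levels, a single animal lay far from the others of its group; chance alone gives about 2. In the F1 sGC group, the log2 level of SUCLA2 was 11.21 in SGM12, against 11.04 to 11.08 in the other 4 animals. In the F2 Veh group, the log2 level of IDH3B was 10.87 in SGM29, against 10.71 to 10.75 in the other 4. Neither animal's removal led to a call of the gene.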

How the results depend on the processing

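Members called stayed at 0 in each generation under every alternative except these: quantile normalization called 1 F1 member higher (OGDH), and leaving out single F1 animals gave 0 to 1 member lower (MDH2 without sGC SGM8, SUCLA2 without Veh SGM3). Between F1 and F3, scaling to the total called 1 member (OGDH, adjusted p = 0.0222) and quantile normalization 2, and 1 was called without SGM4 and SGM8 (IDH3B). The number of all genes called depended more on the setting. In F1 it was 2058 as reported, 78 on the deposited scale, 1345 with the removed directions as covariates, and 904 (without Veh SGM11) to 2021 with single animals left out. In F2 it was 0 as reported, 42 with quantile normalization and 0 to 2 with single animals left out (2 without Veh SGM23 or SGM28). In F3 it was 5 as reported, 11 without the trend, 1 with the removed directions, 3 with the batch as a covariate, 0 in the first batch alone, and 1 to 17 with single animals left out, where every F3 animal but SGM22 moved it. The cause was not tested. Signs turned for values near 0. In F1 without SGM4 and SGM8, IDH3A stood at −0.013 and its F1 minus F3 contrast at −0.046. In F2 on the deposited scale, CS stood at −0.072, SUCLA2 at −0.047, MDH2 at −0.073 and MPC1 at −0.061. With single F2 animals left out, CS ranged from −0.023 to 0.027, SUCLA2 from −0.033 to 0.078, MDH2 from −0.033 to 0.041 and MPC1 from −0.027 to 0.074. With single F3 animals left out, MDH2 ranged from −0.0027 to 0.064 and DLD from −0.030 to 0.00031. The F1 minus F2 contrasts of DLD and IDH3B turned to 0.089 and 0.077 on the deposited scale, and the F2 minus F3 contrasts of CS and OGDH to 0.015 and 0.017 with quantile normalization. MPC1, MPC2, PDK3 and PPARGC1A kept their F1 calls in 10 of 10 fits with single animals left out. PDHB and ESRRA kept theirs in 3 of 10 (lost without Veh SGM3, SGM7, SGM11 or SGM19 or sGC SGM4, SGM16 or SGM20), PDP2 in 8 (lost without Veh SGM7 or SGM11), and PDPR and PGAM1 in 9 (lost without Veh SGM11). The column names number both groups of a generation alike, but no source ties a number to a litter, batch or day. Deviations of same-numbered animals correlated at −0.24 to 0.31 in F1, −0.41 to 0.22 in F2 and −0.54 to 0.19 in F3. Of the animals, 2 of 10, 2 of 10 and 1 of 12 correlated best with their own number. So few pairs, with directions already removed before deposit, cannot settle whether the number marks a shared litter, batch or day. A replicate block on the number, chosen after seeing the data, called 771 genes in F1, 0 in F2, 0 in F3 and no member. MPC1, MPC2, PDPR and PPARGC1A were called in F1 with this block, and PDHB, PDK3, PDP2, PGAM1 and ESRRA were not. Groups of 5 in F1 and F2 left intervals reaching, on either side, about the size of most F1 fold changes. In F3, with groups of 6, intervals were narrower than in F1 for all measured members but MDH2. They ran from −0.019 to 0.082 for CS (F1 fold change 0.119) and −0.0996 to 0.035 for OGDH (F1 0.124). The F1 values of IDH3B (−0.099), MDH2 (−0.141) and DLD (−0.106) lay below their F3 intervals, from −0.021, −0.086 and −0.085 upward. That of IDH3A (0.054) lay within −0.026 to 0.093. The F1 values have intervals of their own, so this is no test.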
